A study of Mus musculus with 28 samples.

Results

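Germinal center B cells carrying 1 Tbl1xr1 D370Y allele were compared with germinal center B cells of unmutated Tbl1xr1, called WT here. The comparison takes the 5 mutant libraries and the 3 WT libraries of a mouse RNA-seq series of 28 libraries, chosen by their titles, and leaves out the libraries with the ImuBcl6 allele. All 8 libraries were heterozygous for Cg1Cre, an allele that makes Cre recombinase in B cells that have responded to antigen. The mutant genotype was Cg1Cre(+/-) with Tbl1xr1(D370Y/WT), and that of the controls Cg1Cre(+/-) with Tbl1xr1(WT/WT). A second pair of groups, used for values side by side, carried ImuBCL6 and Cg1Cre(+/-) with Tbl1xr1(D370Y/WT) or Tbl1xr1(WT/WT), 5 libraries each. The remaining pair had Cg1Cre(+/-) with Tbl1xr1(KO/KO) or, as Cre control, Tbl1xr1(WT/WT), also 5 libraries each. The 3 pairs share no library. The labels do not state the immunization, the sort gate, the age of the mice or the animal behind each library. The p-values therefore measure how these libraries scatter, and some of that scatter may be technical. Each mutant cell keeps an unmutated allele, and the libraries are bulk samples of the cells labelled as germinal center B cells. Of 23382 listed genes, 10164 autosomal genes had a CPM (the reads on a gene scaled to the authors' read total) of at least 1 in 3 or more of the 8 libraries and were tested.

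TBL1XR1 is a WD40-repeat protein of the SMRT/NCOR corepressor complexes, which hold the histone deacetylase HDAC3. BCL6, the repressor that maintains the germinal center, recruits these complexes through its BTB domain to silence genes of egress, differentiation and the DNA damage response. Germinal center B cells mutate their antibody genes, are selected, and leave as memory B cells or plasma cells. The D370Y label names a change from aspartate to tyrosine in the WD40 repeats, and mutations of this gene recur in B cell lymphomas.

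The codon is shown because it is the only designed difference between the groups. In the GENCODE M21 annotation of GRCm38 (mm10), residue 370 of the 514 residues of Tbl1xr1 is an aspartate encoded by GAC at chr3:22200650-22200652, plus strand, in exon 12 of 16. The coding stretch around it is given 5′ to 3′, with the codon in capitals.
Tbl1xr1 codon 370: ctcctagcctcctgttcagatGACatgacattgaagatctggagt
A T at the first base of this codon would give tyrosine. The labels do not give the base change made in the mice, and the CPM tables hold no allele counts.

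Per library, CPM are given in the order of the replicate numbers, 1 to 5 for D370Y and 1 to 3 for WT. Tbl1xr1 itself (chromosome 3, 22076652 to 22216594, plus strand) was measured at 165, 140.2, 141, 135 and 146.5 CPM in D370Y and 156, 171 and 176 CPM in WT. The groups overlapped, and the difference did not pass the test (log2 fold change -0.21 ± 0.08 SE, adjusted p = 0.165). Bcl6 lay at 383, 328, 343, 399 and 359.9 CPM in D370Y and 358, 366 and 364 CPM in WT, with the 3 WT values inside the mutant range (log2 fold change 0.00 ± 0.07 SE, adjusted p = 0.988). A whole-gene level checks neither the base change nor the protein.

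Sequencing depth, as reads on listed genes, was 19.2 to 22.2 M in the D370Y libraries and 19.0 to 19.4 M in WT, so that 3 reads corresponded to 0.111 to 0.133 CPM. Markers of the labelled cell type were present in all 8 libraries, with Fas at 96.9 to 123 CPM in D370Y and 118 to 129 CPM in WT, and Mybl1 at 225 to 308 and 288 to 309 CPM. D370Y replicate 4 stood apart from the other libraries on the first 2 principal components, which held 38.2% and 24.0% of the variance. Its listed genes took 78.7% of the authors' read total, against 81.9% to 82.4% in the other D370Y libraries and 82.5% to 84.3% in WT. Sex-linked transcripts followed the groups. Ddx3y, a Y-linked gene, was at 0 to 0.344 CPM in D370Y and 88.3 to 100.2 CPM in WT, whereas Xist was at 486 to 1460 CPM in D370Y and 2.22 to 9.12 CPM in WT. The ImuBcl6 pair had the reverse arrangement, with Ddx3y at 36.8 to 62.6 CPM in the D370Y libraries and at most 0.0246 CPM in their controls. In D370Y against WT the effects of sex and of genotype cannot be told apart, and genes of the X and Y chromosomes were not tested.

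The comparison asked which genes differ between heterozygous D370Y and WT germinal center B cells. Rises were more frequent than falls: 349 of the 10164 genes (3.43%) were called by limma at a Benjamini-Hochberg adjusted p below 0.05, 259 of them higher (2.55%) and 90 lower (0.885%). At an unadjusted p below 0.05 there were 1869 genes. The called rises had a median log2 fold change of 0.60 and a median level of 12.3 CPM, and the called falls -0.41 and 34.6 CPM, where the median over all genes tested was -0.01 and 33.9 CPM. A change of at least 2-fold was fitted for 29 of the called rises and 1 of the called falls. Log2 fold changes are of CPM + 1, a scale on which changes at low levels appear smaller than they are.

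The 8 values of a gene show the groups without a model. All 5 D370Y values lay above all 3 WT values for 761 genes (7.49%) and below them for 746 (7.34%). Of the called rises 256 of 259, and of the called falls 89 of 90, belonged to these. Rises were called for 4.31% of the genes below 5 CPM and for 0.698% of those above 100 CPM, and falls for 0.729% and 1.05%. Under the filter a gene present only in D370Y needed 3 of the 5 libraries, and a gene present only in WT all 3. This favoured rises among genes near 1 CPM, and its part in these shares was not tested. With 3 WT libraries the counts rested on each of them: 134, 129 and 101 genes were called without WT replicate 1, 2 and 3. Without D370Y replicate 4 there were 436, with 292 higher and 144 lower. Of the 80 called genes followed one by one, 45, 45 and 35 kept their call without WT replicate 1, 2 and 3, and 71 without D370Y replicate 4.

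**Figure D1:**
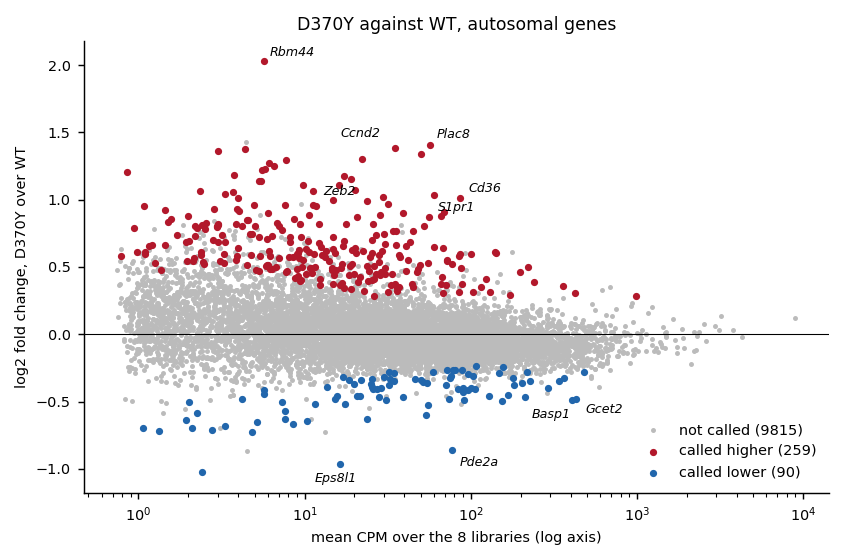
Each point is 1 of the 10164 autosomal genes tested, with its mean CPM over the 8 libraries on a log axis and its log2 fold change, D370Y over WT. The 259 called rises (red) lie mostly at lower levels than the 90 called falls (blue), and Rbm44 has the largest rise at 2.03. Rbm44 reached 1 CPM in 3 libraries only with D370Y libraries counted, so a rise was favoured in advance.

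Of the 21 tested members of the memory B cell list, 11 were called higher and 0 lower, with a median log2 fold change of 0.57, where 2.55% of all tested genes were called higher. The 11 include Cd38, S1pr1, Klf2, Gpr183, Ccr6, Bcl2, Zbtb32, Il9r, Plac8 and Ccr7. In bulk libraries a difference in the number of cells of one kind and a difference in RNA per cell cannot be told apart.

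S1pr1 (chromosome 3, 115710433 to 115715072, minus strand), the receptor through which lymphocytes follow sphingosine-1-phosphate out of tissue, was at 64.2, 76.05, 65.05, 68.7 and 64.6 CPM in D370Y and 39.2, 34.9 and 35.5 CPM in WT (log2 fold change 0.87 ± 0.08 SE, adjusted p = 0.000116). The lowest D370Y value exceeded the highest WT value by more than the range of either group. Klf2, a Krüppel-like factor that drives S1pr1 transcription, was at 34.7, 32.3, 34.8, 36.99 and 39.2 CPM in D370Y and 23.9, 19.1 and 19.5 CPM in WT (log2 fold change 0.75 ± 0.09 SE, adjusted p = 0.00089). Gpr183 (EBI2), which guides B cells to the outer follicle, was at 29.6, 30.3, 30.7, 37.1 and 28.8 CPM in D370Y and 18.6, 16.2 and 16.9 CPM in WT, with no overlap and D370Y replicate 4 highest (log2 fold change 0.82 ± 0.09 SE, adjusted p = 0.000605). These 3 genes kept their calls without any 1 of the 8 libraries.

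Ccr7 directs B cells to the border with the T cell zone and to lymph nodes. It lay at 13.4, 18.7, 14.97, 14.8 and 10.8 CPM in D370Y and 7.40, 7.10 and 6.29 CPM in WT (log2 fold change 0.95 ± 0.14 SE, adjusted p = 0.00244). For Ccr6, a chemokine receptor of memory precursors in the light zone, the values were 46.5, 45.6, 44.3, 74.9 and 55.3 CPM in D370Y and 31.2, 27.5 and 32.5 CPM in WT, with D370Y replicate 4 well above the other mutant libraries (log2 fold change 0.76 ± 0.15 SE, adjusted p = 0.0149). The Ccr6 call was lost without any 1 of the 3 WT libraries (adjusted p = 0.0782 without WT replicate 2). The Ccr7 values did not overlap between the groups, and D370Y replicate 5 was the lowest mutant library. Where 2.55% of all tested genes were called higher, 4 of 13 tested members of the chemoattractant and egress receptor list were. These are S1pr1, Gpr183, Ccr6 and Ccr7, all also on the memory list. In the receptor list 0 were called lower, with a median of 0.14. The other 9 did not pass the test, and the summed level of the list overlapped between the groups, at 2443 to 2590 CPM in D370Y and 2438 to 2558 CPM in WT.

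Plac8 (chromosome 5, 100553725 to 100572245, minus strand), a small cysteine-rich protein, was at 68.2, 84.6, 85.7, 75.2 and 57.5 CPM in D370Y and 26.2, 26.9 and 28.4 CPM in WT (log2 fold change 1.40 ± 0.11 SE, adjusted p = 0.000116), a ratio of mean CPM of 2.73. Its 3 WT values lay close together, and every mutant value was far above them. Il9r, the receptor for interleukin 9, was at 52.2, 46.8, 40.6, 59.5 and 38.2 CPM in D370Y and 25.4, 28.1 and 20.9 CPM in WT (log2 fold change 0.90 ± 0.14 SE, adjusted p = 0.00385), and Cd38, a surface enzyme that mouse germinal center B cells lose, at 111, 101, 94.2, 84.6 and 108 CPM in D370Y and 65.02, 58.05 and 73.3 CPM in WT (log2 fold change 0.60 ± 0.10 SE, adjusted p = 0.00491). The memory list counted 10 called rises without D370Y replicate 4 and 10, 9 and 9 without WT replicate 1, 2 and 3. The list was chosen with earlier results of these libraries known, so its count is no independent evidence of its direction.

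**Figure D2:**
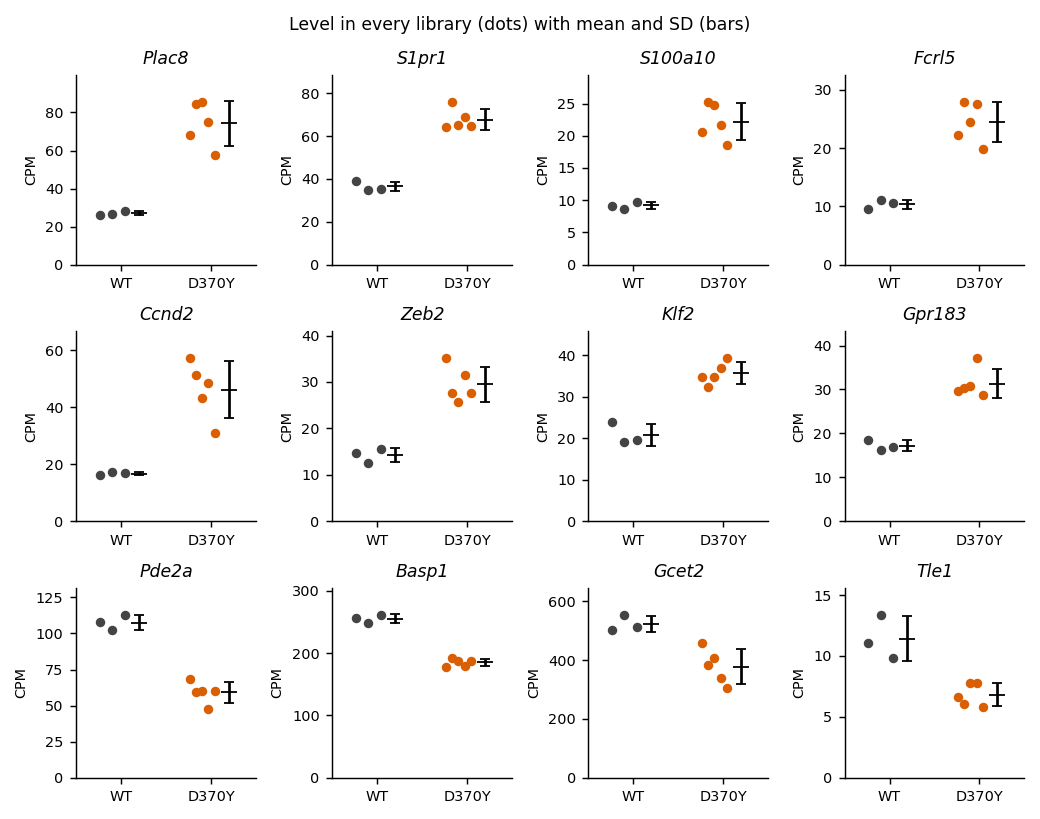
CPM of 12 genes in each library (dots: 3 WT in grey, 5 D370Y in orange), with group mean and SD as bars beside the dots and each axis starting at 0. In none of the 12 panels do the groups overlap: 8 genes lie higher in all D370Y libraries and Pde2a, Basp1, Gcet2 and Tle1 lower. The panels were picked from called genes, of which 256 of 259 rises and 89 of 90 falls do not overlap. Over all tested genes 7.49% lay above WT and 7.34% below without overlap.

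The naive B cell list had 6 of 17 tested members called higher (Ccr7, Klf2, S1pr1, Gimap4 and Cd38 among them) and 0 lower, with a median of 0.23, and 5 of these 6 are also on the memory list. Without D370Y replicate 4 it had 5 called rises. Among 23 tested B cell transcription factors 4 were called higher (Irf4, Klf2, Klf3 and Zeb2) and 0 lower, with a median of 0.01. For both lists the background is the 2.55% of all tested genes called higher. Klf3, another Krüppel-like factor, was at 8.29, 8.18, 7.45, 10.8 and 7.47 CPM in D370Y and 4.26, 4.60 and 3.99 CPM in WT (log2 fold change 0.83 ± 0.12 SE, adjusted p = 0.00266), a rise in every mutant library. Pax5 (0.04 ± 0.10) and Ebf1 (0.02 ± 0.08), which fix B cell identity, did not pass the test.

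Zeb2 (chromosome 2, 44983632 to 45117395, minus strand), a zinc-finger factor that the T-bet-positive, atypical memory state needs, was at 35.1, 27.7, 25.8, 31.5 and 27.5 CPM in D370Y and 14.7, 12.6 and 15.6 CPM in WT (log2 fold change 0.99 ± 0.10 SE, adjusted p = 0.000452). The lowest D370Y value was well above the highest WT value. Tbx21, which encodes T-bet, was at 17.7, 22.5, 17.7, 21.03 and 20.1 CPM in D370Y and 12.3, 11.4 and 12.8 CPM in WT (log2 fold change 0.65 ± 0.09 SE, adjusted p = 0.00247), and Fcrl5, an inhibitory Fc receptor-like protein of these cells, at 22.3, 27.96, 24.5, 27.5 and 19.9 CPM in D370Y and 9.55, 11.1 and 10.5 CPM in WT (log2 fold change 1.15 ± 0.11 SE, adjusted p = 0.000253). All 3 were higher in 5 of 5 mutant libraries.

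Where 2.55% of all tested genes were called higher, 8 of the 14 tested members of the atypical memory list were, and 0 were called lower. The 8 include Tbx21, Zeb2, Itgam, Fcrl5, Cd72, Lilrb4 and Zbtb32, and the list median was 0.59. The count was 5, 4 and 5 without WT replicate 2, WT replicate 3 and D370Y replicate 3, and 6 without D370Y replicate 4. Itgax, which encodes the integrin CD11c that names these cells, was at 13.1, 8.55, 4.57, 3.62 and 1.80 CPM in D370Y and 0.904, 1.51 and 1.64 CPM in WT. All 5 mutant values lay above WT but spread widely, and the difference did not pass the test (log2 fold change 1.43 ± 0.40 SE, adjusted p = 0.0791). Markers of macrophages moved with this list. Of 11 tested macrophage and myeloid markers (18 listed) 6 were called higher (Lyz2, Emr1, Csf1r, Itgam, C1qa and Mpeg1) and 0 lower, with a median of 0.71. Lyz2, C1qa, C1qc and, in the atypical memory list, Itgax reached 1 CPM in 3 libraries only with D370Y libraries counted. A rise was favoured in advance for them, so their part in these counts and medians is no evidence of direction. The summed level of the myeloid markers, untested members included, was 135 to 152 CPM in D370Y and 79.3 to 96.2 CPM in WT. Mpeg1 made up most of this sum, at 69.9 to 96.0 CPM in D370Y and 52.4 to 60.9 CPM in WT. Lyz2, the lysozyme of myeloid cells, was at 4.31, 4.65, 3.72, 2.41 and 6.14 CPM in D370Y and 1.25, 0.818 and 0.931 CPM in WT (log2 fold change 1.36 ± 0.19 SE, adjusted p = 0.00239). Emr1, which encodes F4/80, was at 13.04, 14.1, 11.3, 7.75 and 5.62 CPM in D370Y and 3.31, 3.74 and 3.23 CPM in WT (log2 fold change 1.30 ± 0.23 SE, adjusted p = 0.0103), and Itgam, which encodes CD11b and stands on both lists, at 8.51, 8.30, 5.76, 5.26 and 2.71 CPM in D370Y and 1.64, 1.72 and 1.42 CPM in WT (log2 fold change 1.38 ± 0.25 SE, adjusted p = 0.0117). The monocyte marker Cd14 stayed at 0.419 CPM or less, Cd163 at 0.506 CPM or less and Fcgr1 at 0.355 CPM or less in all 8 libraries, and Mertk reached 1.19 CPM in D370Y and 0.473 CPM in WT. The calls of Emr1 and Itgam were lost without WT replicate 3 (adjusted p = 0.0519 without WT replicate 3 for Emr1, adjusted p = 0.0641 without WT replicate 3 for Itgam), and the myeloid count was 3 and 1 without WT replicate 1 and 3. The part of myeloid RNA in the rises of the atypical memory list was not tested.

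**Figure D3:**
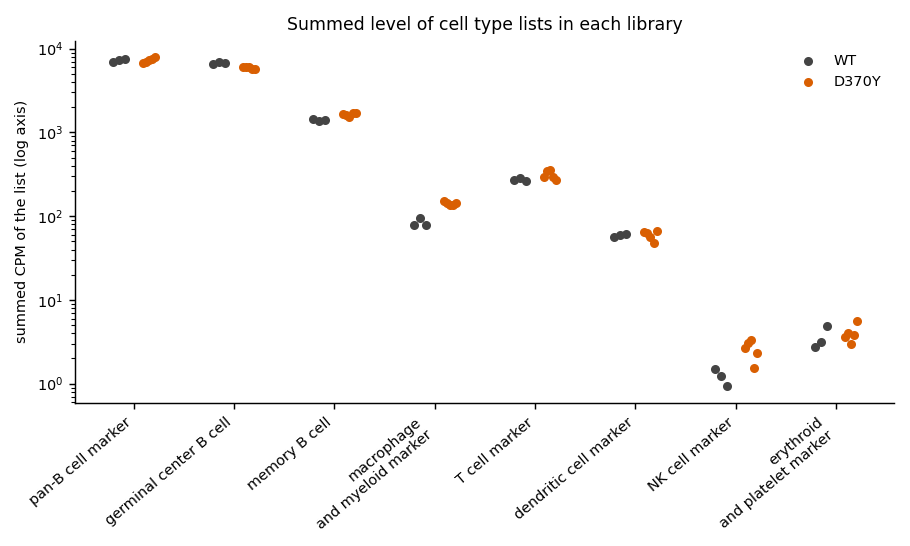
Summed CPM of cell type lists in each library on a log axis, with 3 WT libraries in grey and 5 D370Y libraries in orange. The macrophage and myeloid sum is 135 to 152 CPM in D370Y and 79.3 to 96.2 in WT, while the pan-B sums overlap at 6806 to 7912 and 6924 to 7598. Mpeg1 makes up most of the macrophage and myeloid sum in every library.

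None of the 9 neutrophil markers in the files was tested, and their sum was at most 0.614 CPM. Of the T cell markers 4 were tested and 0 called, all 4 had a fold change above 0, and their median was 0.41. Among these, Cd5 and Cd28 reached 1 CPM in 3 libraries only with D370Y libraries counted, so a rise was favoured in advance. Of the untested markers Cd3d, Cd3e and Cd4 were below 1 CPM in all 8 libraries, and Cd3g reached 2.18 CPM in D370Y replicate 2. Cd4 was at 0.740 to 0.922 CPM in D370Y and 0.258 to 0.6025 CPM in WT, without overlap, while Cd3d and Cd3e overlapped. Cd5 was at 1.58 to 3.15 CPM in D370Y and 0.753 to 1.42 CPM in WT, without overlap, and Cd28 at 1.59 to 5.58 and 0.775 to 1.68 CPM, with overlap. The summed NK cell markers were at 1.52 to 3.30 CPM in D370Y and 0.931 to 1.51 CPM in WT, without overlap. Lck, which some B cells also express, was at 138, 177.5, 178, 155 and 118 CPM in D370Y and 133, 149.7 and 126 CPM in WT (log2 fold change 0.16 ± 0.12 SE, adjusted p = 0.539). The 8 pan-B markers had 0 calls and a median of 0.03. The dendritic cell sum was 47.3 to 65.7 CPM in D370Y and 55.8 to 61.5 in WT, and Flt3 made up most of it at 42.4 to 62.8 and 54.2 to 59.0 CPM. The follicular dendritic and B cell receptor gene Cr2 was at 225, 251, 249, 387 and 602 CPM in D370Y and 305, 285 and 369 CPM in WT, with D370Y replicates 4 and 5 above all other libraries (log2 fold change 0.01 ± 0.26 SE, adjusted p = 0.996).

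Among 22 tested genes that BCL6 is known to repress, 9 were called higher (Prdm1, S1pr1, Gpr183, Ccnd2, Bcl2, Cxcl10, Irf4, Atr and Ccr6) and 0 lower, where 2.55% of all tested genes were called higher. The median of the 22 was 0.30, and the count of called rises was 5 without WT replicate 3 and 8 without D370Y replicate 4. S1pr1, Gpr183, Bcl2 and Ccr6 are also called members of the memory list. Ccnd2 (chromosome 6, 127125162 to 127152193, minus strand), a D-type cyclin that BCL6 silences in the germinal center, was at 57.1, 51.3, 43.1, 48.3 and 30.8 CPM in D370Y and 16.1, 17.2 and 16.9 CPM in WT (log2 fold change 1.38 ± 0.15 SE, adjusted p = 0.000823). It was the 1 called gene of 12 tested D cyclins and CDK regulators. Bcl2, the antiapoptotic gene switched off in normal germinal center B cells, was at 15.1, 16.7, 16.9, 22.7 and 16.7 CPM in D370Y and 10.5, 9.51 and 10.6 CPM in WT, with D370Y replicate 4 highest (log2 fold change 0.72 ± 0.11 SE, adjusted p = 0.00437). In the BCL2 family list Bcl2l2, a close relative, was the other call of 15 tested members (7.04, 7.34, 7.06, 7.98 and 6.44 CPM in D370Y and 4.78, 5.04 and 3.68 CPM in WT, log2 fold change 0.58 ± 0.11 SE, adjusted p = 0.0135), and it was lost without WT replicate 3 (adjusted p = 0.106 without WT replicate 3).

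Prdm1 encodes BLIMP1, the factor that ends the B cell program in plasma cells. It was at 37.6, 30.1, 24.9, 19.4 and 14.5 CPM in D370Y and 10.2, 14.8 and 8.60 CPM in WT. The lowest D370Y library lay below the highest WT library, so that the groups overlapped (log2 fold change 1.07 ± 0.25 SE, adjusted p = 0.0418), and the call was lost without any 1 of 6 libraries (adjusted p = 0.205 without WT replicate 3). Irf4, which acts in selection and plasma cell commitment, was at 85.9, 106, 83.7, 85.1 and 75.7 CPM in D370Y and 61.2, 58.5 and 61.03 CPM in WT (log2 fold change 0.52 ± 0.09 SE, adjusted p = 0.00838), without overlap, and lost its call without WT replicate 2 or 3 (adjusted p = 0.0531 without WT replicate 2). Other known targets stayed near WT, with log2 fold changes of 0.06 ± 0.18 for the cell cycle inhibitor Cdkn1a, 0.01 ± 0.06 for Trp53 and -0.04 ± 0.08 for the adhesion receptor Cd44, and none of these passed the test.

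In the SMRT/NCOR complex and BCL6 partner list 0 of 13 tested members were called in either direction, with a median of -0.07. With 3.43% of all tested genes called, a count of 0 in so short a list is near the background. The scaffold Ncor1 was at 278, 241, 244, 308 and 284 CPM in D370Y and 261, 292 and 308 CPM in WT (log2 fold change -0.08 ± 0.09 SE, adjusted p = 0.65). Among 12 tested Groucho, TLE and SIN3 corepressor genes 2 were called lower and 0 higher, where 0.885% of all tested genes were called lower. Tle1, a Groucho-type corepressor, was at 6.59, 6.08, 7.79, 7.79 and 5.80 CPM in D370Y and 11.1, 13.4 and 9.79 CPM in WT (log2 fold change -0.67 ± 0.12 SE, adjusted p = 0.011), and Sap30, a SIN3 subunit, at 18.4, 19.1, 19.1, 16.7 and 21.1 CPM in D370Y and 25.6, 24.8 and 28.5 CPM in WT (log2 fold change -0.46 ± 0.09 SE, adjusted p = 0.011). Both were lower in all 5 mutant libraries. Without WT replicate 1 neither kept its call, and without WT replicate 2 or 3 the list counted 1.

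Promoters were searched for TTCNNNGAA, the core shared by BCL6 and STAT sites, in the 300 bases from 250 before to 50 after each RefSeq start (GRCm38.p6). The motif is its own reverse complement, so both strands are covered. It was found in 8.3% of 32851 promoters, and 8122 of the tested genes could be matched by symbol, of which 8.2% held it. Among the called rises 17 of 192 matched genes held it (8.85%), and among the called falls 3 of 65 (4.62%). The shares of the called genes are descriptions and stand close to or below that of all tested genes. Ccr6 is shown because it is a called member of the BCL6 target list and holds the motif at 2 positions, and Zeb2 because it was called in all 3 allele comparisons. The matches are in capitals, and each sequence is written 5′ to 3′ on the strand of its gene, for Ccr6 chr17:8235793-8236092 on the plus strand and for Zeb2 chr2:45113230-45113529 on the minus strand.
Ccr6 promoter: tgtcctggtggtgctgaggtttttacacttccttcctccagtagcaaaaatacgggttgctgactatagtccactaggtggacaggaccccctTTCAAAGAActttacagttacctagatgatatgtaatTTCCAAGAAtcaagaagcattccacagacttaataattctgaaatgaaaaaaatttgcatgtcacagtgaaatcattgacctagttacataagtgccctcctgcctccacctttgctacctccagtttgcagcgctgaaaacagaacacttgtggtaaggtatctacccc
Zeb2 promoter: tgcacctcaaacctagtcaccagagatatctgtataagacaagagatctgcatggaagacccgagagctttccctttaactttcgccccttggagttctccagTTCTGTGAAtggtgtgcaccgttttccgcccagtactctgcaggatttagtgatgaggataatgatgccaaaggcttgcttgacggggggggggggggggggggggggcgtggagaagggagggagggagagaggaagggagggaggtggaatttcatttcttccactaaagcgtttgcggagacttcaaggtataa
The 2 Ccr6 matches begin 157 and 120 bases before the annotated start, and the Zeb2 match 147 bases before it.

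Calcium-binding and membrane scaffold genes rose in part. Of 15 tested members of the S100, annexin and scaffold list 6 were called higher (S100a6, S100a10, Anxa6, Ahnak, Plac8 and Capg), 1 was called lower (Anxa2), and the median was 0.22. Over all tested genes 2.55% were called higher and 0.885% lower. S100a10, the partner of annexin A2, was at 20.6, 25.3, 24.8, 21.7 and 18.6 CPM in D370Y and 9.16, 8.69 and 9.75 CPM in WT (log2 fold change 1.18 ± 0.10 SE, adjusted p = 0.000116). Capg, an actin-capping protein, was at 75.5, 89.1, 80.6, 95.98 and 80.7 CPM in D370Y and 47.1, 46.8 and 39.3 CPM in WT (log2 fold change 0.91 ± 0.09 SE, adjusted p = 0.000276). Anxa2 itself went the other way, at 362, 396, 357, 266 and 407 CPM in D370Y and 470.4, 509.8 and 508 CPM in WT (log2 fold change -0.49 ± 0.12 SE, adjusted p = 0.0377), with no overlap and D370Y replicate 4 lowest. The Anxa2 call was lost without any 1 of the 3 WT libraries or D370Y replicate 1 or 3 (adjusted p = 0.184 without WT replicate 3).

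Of 18 tested cytokine receptors 4 were called higher (Il10ra, Il10rb, Il6st and Il9r), 1 lower (Tgfbr1), and the median was 0.21. Over all tested genes 2.55% were called higher and 0.885% lower. Il10ra and Il10rb form the receptor for interleukin 10, and Il6st is the gp130 subunit of the interleukin 6 family. Il10ra was at 66.8, 65.8, 72.1, 78.2 and 79.7 CPM in D370Y and 57.3, 55.99 and 53.1 CPM in WT (log2 fold change 0.38 ± 0.08 SE, adjusted p = 0.0193) and Il10rb at 31.2, 32.9, 34.2, 31.3 and 40.1 CPM in D370Y and 23.6, 23.6 and 26.4 CPM in WT (log2 fold change 0.45 ± 0.09 SE, adjusted p = 0.0151). Il6st was at 13.96, 15.4, 13.8, 12.3 and 10.99 CPM in D370Y and 7.96, 9.60 and 7.71 CPM in WT (log2 fold change 0.60 ± 0.11 SE, adjusted p = 0.0119). None of these 3 overlapped between groups, as held for 256 of the 259 called rises. The count of called rises was 2 without each of the 3 WT libraries in turn. Tgfbr1, a receptor for TGF-beta, had a log2 fold change of -0.41 ± 0.09.

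Among 16 tested integrins and adhesion molecules 3 were called higher (Itgb7 and Itgam among them) and 0 lower, with a count of 1 without WT replicate 3 and 5 without D370Y replicate 5. The share of all tested genes called higher was 2.55%. Itgb7, a beta integrin of gut homing, was at 35.9, 33.9, 36.3, 37.9 and 43.8 CPM in D370Y and 30.2, 25.9 and 25.5 CPM in WT (log2 fold change 0.45 ± 0.09 SE, adjusted p = 0.0163). Of the 8 GIMAP genes, GTPases of lymphocyte survival, 3 were called higher (Gimap3, Gimap4 and Gimap5) and 0 lower, with a median of 0.29. Gimap3 was at 91.4, 89.9, 83.6, 113 and 113 CPM in D370Y and 71.8, 70.2 and 65.3 CPM in WT (log2 fold change 0.49 ± 0.10 SE, adjusted p = 0.0188) and Gimap4 at 249, 228.5, 216, 229 and 329.7 CPM in D370Y and 167, 179 and 177 CPM in WT (log2 fold change 0.50 ± 0.11 SE, adjusted p = 0.0313), and D370Y replicate 5 had by far the highest Gimap4 value. Without WT replicate 1, 2 or 3 the GIMAP list counted 0. The 3 called genes lie in 1 cluster on chromosome 6 and are similar in sequence, so reads may have been shared among them.

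Ptpn22, a phosphatase that dampens antigen receptor signalling, was the 1 call among 20 tested genes of B cell receptor signalling, near the 3.43% called of all tested genes. It was at 22.5, 32.2, 25.2, 22.2 and 23.2 CPM in D370Y and 11.4, 14.1 and 14.1 CPM in WT (log2 fold change 0.87 ± 0.12 SE, adjusted p = 0.00202), with D370Y replicate 2 highest. Gpr132, a receptor for lysophospholipids and oxidised lipids, was at 8.03, 7.21, 6.52, 10.3 and 6.44 CPM in D370Y and 2.84, 2.45 and 2.75 CPM in WT (log2 fold change 1.23 ± 0.14 SE, adjusted p = 0.000633). Where 2.55% of all tested genes were called higher, a rise was called for 2 of 13 tested LXR targets and cholesterol efflux genes and a fall for 0. These were Abcg1, a cholesterol exporter (20.9, 15.8, 18.9, 23.3 and 23.3 CPM in D370Y and 15.4, 9.90 and 11.6 CPM in WT, log2 fold change 0.69 ± 0.14 SE, adjusted p = 0.021), and Cd36, a scavenger receptor (80.5, 79.6, 94.3, 94.6 and 189 CPM in D370Y and 43.6, 49.3 and 57.3 CPM in WT, log2 fold change 1.02 ± 0.23 SE, adjusted p = 0.0354). D370Y replicate 5 held the highest Cd36 value by a wide margin. Without WT replicate 2 or 3 neither call was kept, and that of Cd36 was also lost without WT replicate 1, D370Y replicate 3 or D370Y replicate 4 (adjusted p = 0.167 without D370Y replicate 4). Of 20 tested genes of cholesterol and fatty acid synthesis 0 were called, with a median of 0.01.

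Large rises also occurred outside the lists. Rbm44, an RNA-binding protein, had the largest fitted change at 4.50, 4.03, 17.04, 6.81 and 9.79 CPM in D370Y and 0.301, 2.07 and 1.20 CPM in WT (log2 fold change 2.03 ± 0.38 SE, adjusted p = 0.0135). It reached 1 CPM in 3 libraries only with D370Y libraries counted, so a rise was favoured in advance. Its mutant libraries differed among themselves, from 4.03 to 17.04 CPM, and the call was lost without D370Y replicate 4 or WT replicate 1 or 3 (adjusted p = 0.107 without D370Y replicate 4). Plaur, the urokinase receptor, was at 6.37, 8.38, 6.03, 9.35 and 4.81 CPM in D370Y and 3.06, 1.72 and 3.06 CPM in WT (log2 fold change 1.14 ± 0.19 SE, adjusted p = 0.0065), and Ly6k, a GPI-anchored Ly6 protein, at 4.61, 6.499, 6.79, 8.72 and 10.4 CPM in D370Y and 3.18, 2.15 and 2.26 CPM in WT (log2 fold change 1.22 ± 0.19 SE, adjusted p = 0.00483). Both were higher in every mutant library. On the CPM scale, which is not corrected for transcript length, the called rise with the highest mean was H2-K1, a classical MHC class I chain, at 1099, 1108, 1087, 986.5 and 1050 CPM in D370Y and 897, 932 and 797 CPM in WT (log2 fold change 0.29 ± 0.07 SE, adjusted p = 0.0464). It lost its call without any 1 of 7 of the 8 libraries (adjusted p = 0.304 without WT replicate 3).

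Of 25 tested interferon-induced genes 5 were called higher (Bst2, Pml, Lgals3bp, Ddx58 and Ifih1) and 0 lower, and 25 of 25 had a fold change above 0, with a median of 0.42. Over all tested genes 2.55% were called higher, and the median log2 fold change was -0.01. Pml, the scaffold of nuclear bodies, was at 85.2, 62.05, 54.6, 87.3 and 40.5 CPM in D370Y and 28.5, 25.6 and 20.03 CPM in WT (log2 fold change 1.34 ± 0.22 SE, adjusted p = 0.00641). Ddx58 (RIG-I), a sensor of viral RNA, was at 32.1, 26.4, 25.2, 33.4 and 25.8 CPM in D370Y and 19.3, 19.2 and 17.7 CPM in WT (log2 fold change 0.58 ± 0.10 SE, adjusted p = 0.00784), and Bst2 (tetherin), which holds budding virus at the membrane, at 18.9, 16.9, 16, 16.7 and 14.2 CPM in D370Y and 12.1, 11.9 and 10.3 CPM in WT (log2 fold change 0.49 ± 0.10 SE, adjusted p = 0.0149). None of the 3 overlapped, as held for 256 of the 259 called rises. The count was 3 without D370Y replicate 4, and 3, 3 and 1 without WT replicate 1, 2 and 3. The summed level of the list was 863 to 1242 CPM in D370Y and 810.4 to 914 CPM in WT, so the sums overlapped.

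Of 20 tested plasma cell genes 4 were called higher (Prdm1, Irf4, Cd93 and Ly6a) and 0 lower, and 18 of 20 had a fold change above 0, with a median of 0.40. Over all tested genes 2.55% were called higher. Cd93, a surface protein of plasma cells, was at 15.4, 14.7, 15.8, 11.2 and 17.4 CPM in D370Y and 8.56, 7.40 and 7.80 CPM in WT (log2 fold change 0.82 ± 0.12 SE, adjusted p = 0.00266), with no overlap. The secretory genes Xbp1 (0.17 ± 0.15), Igj (0.11 ± 0.24) and 2010001M09Rik (Mzb1, 0.02 ± 0.13) did not pass the test. The list counted 14 with the replicate number as a block, a fit that takes the difference from replicates 1 to 3 of each group. It counted 10 with library weights, 10 with DESeq2, 2 without D370Y replicate 1, 8 without D370Y replicate 5, and 2 and 1 without WT replicate 1 and 3. Its summed level was 3875 to 6120 CPM in D370Y, lowest in replicate 4, and 4061 to 4518 CPM in WT.

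Genes of germinal center identity were lower in part. Where 0.885% of all tested genes were called lower, 6 of the 21 tested members of that list were (Gcet2, Basp1, Gm600, Rassf6, Gcnt3 and Lrrc49). In the list 1 gene was called higher (Lmo2), and the median was -0.17. The summed level was 5692 to 6091 CPM in D370Y and 6604 to 6976 CPM in WT, without overlap. Basp1, a membrane protein that organises actin at the cell edge, was at 178, 193, 188, 179 and 188 CPM in D370Y and 257, 248 and 262 CPM in WT (log2 fold change -0.46 ± 0.06 SE, adjusted p = 0.00172). The gap between the groups was wider than the range within either. It alone of the 6 stayed called without any 1 of the WT libraries, where the list counted 1 each time, and without D370Y replicate 4 the list counted 7.

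Gcet2 (also Gcsam), a signalling adaptor that slows germinal center B cell movement, was at 457, 384, 405, 338 and 304 CPM in D370Y and 501, 554 and 513 CPM in WT (log2 fold change -0.48 ± 0.11 SE, adjusted p = 0.0324). The groups did not overlap, with D370Y replicates 4 and 5 lowest, and the call was lost without any 1 WT library or without D370Y replicate 4 (adjusted p = 0.151 without WT replicate 2). Gm600 (also Nuggc), a GTPase gene of germinal center B cells, was at 349, 330, 335, 298 and 351 CPM in D370Y and 403, 423 and 424 CPM in WT (log2 fold change -0.33 ± 0.07 SE, adjusted p = 0.0219). Lmo2, a germinal center factor, was higher at 89.9, 92.4, 90.4, 104.5 and 106 CPM in D370Y and 68.5, 79.05 and 75.6 CPM in WT (log2 fold change 0.37 ± 0.08 SE, adjusted p = 0.0222), and its call was lost without any 1 WT library (adjusted p = 0.136 without WT replicate 1). S1pr2 (-0.09 ± 0.08) and Mybl1 (-0.17 ± 0.10) did not pass the test.

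Of 18 tested dark zone genes 1 was called lower (Gcet2) and 0 higher, with a median of -0.14. With 0.885% of all tested genes called lower, 1 call in so short a list is near the background. Among 20 tested light zone genes 3 were called higher and 0 lower, with a median of 0.11, where 2.55% of all tested genes were called higher. The 3 are Ccnd2, Irf4 and Gpr183, all also on the BCL6 target list. In the list of mutation and repair genes 2 of 18 were called lower, beside 0.885% of all tested genes. Mbd4, a glycosylase of T:G mismatches, was at 211, 189.8, 196, 199.5 and 211 CPM in D370Y and 233, 237 and 265 CPM in WT (log2 fold change -0.28 ± 0.07 SE, adjusted p = 0.042), and Lig4, the ligase of end joining, at 51.6, 52.5, 47.2, 49.1 and 45.5 CPM in D370Y and 60.6, 63.8 and 66.3 CPM in WT (log2 fold change -0.36 ± 0.07 SE, adjusted p = 0.0122). The count fell to 0 without WT replicate 2 or 3 and to 1 without WT replicate 1 or D370Y replicate 1, 2 or 3. It was 6 with library weights.

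The strongest fall by p-value was in Pde2a (chromosome 7, 101421691 to 101512827, plus strand), a phosphodiesterase of cyclic nucleotides, at 68.4, 59.7, 59.9, 47.8 and 60.2 CPM in D370Y and 108, 102 and 113 CPM in WT (log2 fold change -0.86 ± 0.10 SE, adjusted p = 0.000611). All 5 mutant values lay below the lowest WT value, and the call held without any 1 library. Eps8l1, an EPS8-like actin regulator, was at 10.5, 8.76, 10.6, 17.2 and 13.1 CPM in D370Y and 24.6, 24.4 and 22.4 CPM in WT (log2 fold change -0.96 ± 0.16 SE, adjusted p = 0.00665). Palm (paralemmin), which shapes the plasma membrane, was at 22.4, 18.3, 19.2, 16.4 and 22.5 CPM in D370Y and 31.97, 29.9 and 30.8 CPM in WT (log2 fold change -0.63 ± 0.10 SE, adjusted p = 0.00467). Palm and Basp1 were the 2 called members of 16 tested cell shape and polarity genes, both lower. Over all tested genes 0.885% were called lower.

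Syne2, a nesprin that links nucleus and cytoskeleton, was at 44.95, 51.6, 42.1, 48.6 and 39.5 CPM in D370Y and 70.9, 69.5 and 66.4 CPM in WT (log2 fold change -0.60 ± 0.09 SE, adjusted p = 0.00239). Cmtm4, a MARVEL-domain membrane protein, was at 5.75, 6.04, 6.25, 6.70 and 6.27 CPM in D370Y and 9.94, 11.2 and 9.22 CPM in WT (log2 fold change -0.63 ± 0.10 SE, adjusted p = 0.00395), and Hspa2, an HSP70 family chaperone, at 49.2, 47.4, 48.97, 49.2 and 41.2 CPM in D370Y and 63.8, 67.1 and 74.5 CPM in WT (log2 fold change -0.53 ± 0.08 SE, adjusted p = 0.00329). These 3 did not overlap between groups, as held for 89 of the 90 called falls, and stayed called without any 1 library. Another fall was listed under Gh (-0.52 ± 0.10), the growth hormone gene, which lies beside Cd79b on chromosome 11. That value is uncertain, since neither the strand setting of the counting nor its treatment of overlapping genes is known from the labels.

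Several programs had no call in either direction, and a p that misses the threshold does not show that the groups are alike. For MHC class II presentation this was 0 of 13 tested, with a median of 0.11, and for toll-like receptors and partners 0 of 14 (0.05). For NF-kB response it was 0 of 17 (0.08), and for MYC and ribosome biogenesis 0 of 18 (0.06). Genes of G1/S and replication (0 of 19, -0.13), of G2/M and mitosis (0 of 20, -0.12) and of glycolysis (0 of 15, -0.15) had medians below 0. The summed levels of the first 2 lists did not overlap between the groups. For G1/S they were 4992 to 5917 CPM in D370Y and 6087 to 6218 CPM in WT, and for G2/M 5776 to 6101 and 6278 to 6635 CPM. In the G2/M list 0 of 20 members had a fold change above 0. The proliferation marker Mki67 was at 1669, 1618, 1576, 2006 and 1617 CPM in D370Y and 1719, 1783 and 1914 CPM in WT (log2 fold change -0.09 ± 0.08 SE, adjusted p = 0.587), with D370Y replicate 4 above all other libraries. For handling stress 1 of 15 tested members was called, the chaperone gene Dnajb1, which was lower (-0.31 ± 0.07). With 3.43% of all tested genes called, 1 call in so short a list is near the background.

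**Figure D4:**
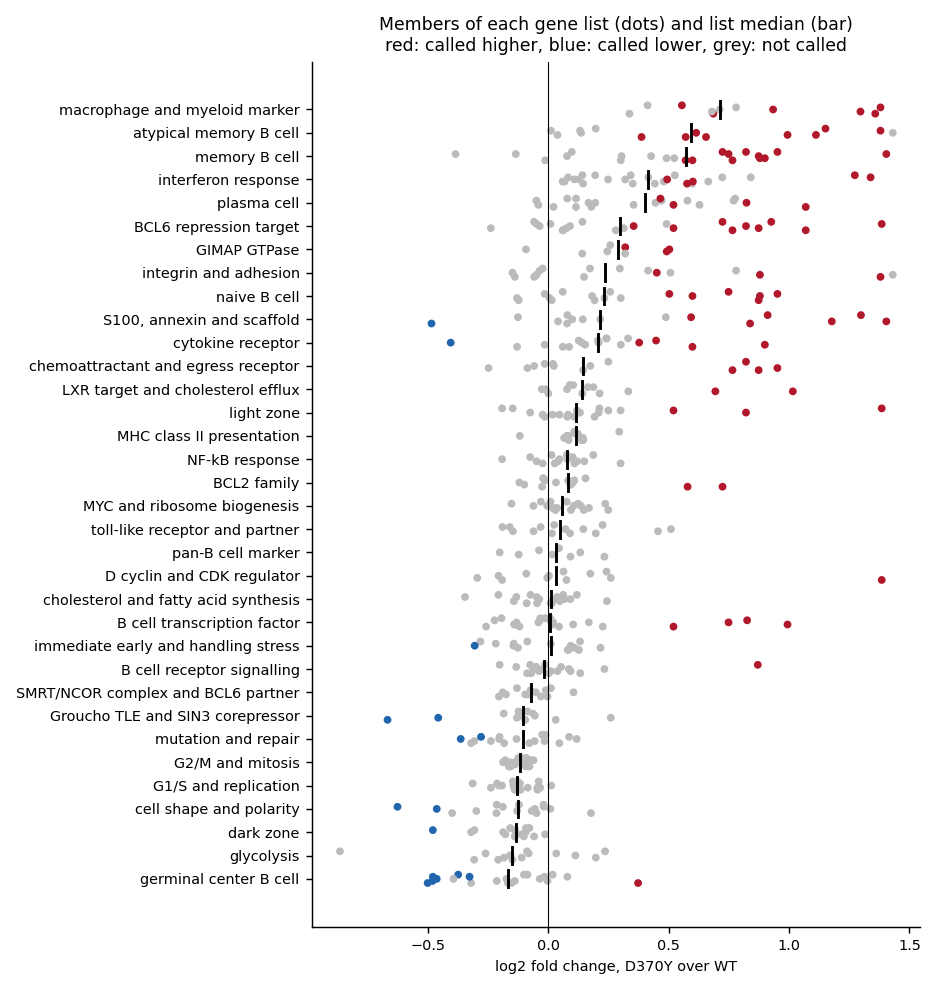
Log2 fold change, D370Y over WT, of the tested members of each list (dots; red called higher, blue called lower, grey not called), with the list median as a bar and lists ordered by it. Medians run from 0.71 for macrophage and myeloid markers to -0.17 for germinal center genes. The myeloid median includes Lyz2, C1qa and C1qc, which passed the filter only with D370Y libraries counted.

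Values in the ImuBcl6 pair tell how the same genes differ where the cells also carry the ImuBcl6 allele. There 285 of 10341 genes were called higher (2.76%) and 544 lower (5.26%). The 829 calls numbered 505, 463 and 380 without ImuBcl6 D370Y replicate 2, ImuBcl6 D370Y replicate 3 and ImuBcl6 replicate 3. Of the 259 rises called against WT, 248 were tested there, 219 had the same sign and 91 were called higher, which is 35.1% of the first list and 31.9% of the second. Of the 90 falls 89 were tested, 82 had the same sign and 21 were called lower, 23.3% and 3.86% of the lists. The 259 genes had a median log2 fold change of 0.37 there and the 90 genes -0.27, against -0.0074 over all genes tested there. The 112 shared calls fell to 57, 56 and 50 without WT replicate 1, 2 and 3 and to 72 without ImuBcl6 replicate 3. In that pair the sex-linked transcripts run the other way, and the shared genes are by definition those called the same way in both pairs. Sex and genotype cannot be told apart within either pair.

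In the libraries labelled KO Tbl1xr1 was not lower than in their Cre controls (0.23 ± 0.11, adjusted p = 0.519), so this pair is named by its label only. There 52 of 10100 genes were called higher (0.515%) and 100 lower (0.99%). Replicate 3 of the libraries labelled KO stood apart, with 64.4% of its read total on listed genes against 80.8% to 84.6% in the other 9 libraries of the pair. Without it 451 genes were called in place of 152, an alternative chosen after seeing the data, and without Cre control replicate 2, 3 and 4 the number was 92, 92 and 100. Of the 259 rises 234 were tested there, 187 had the same sign and 33 were called higher, 12.7% of the first list and 63.5% of the second. Of the 90 falls all 90 were tested, 88 had the same sign and 23 were called lower, 25.6% and 23% of the lists. The 259 rises had a median log2 fold change of 0.20 there and the 90 falls -0.29. Over all genes tested in that pair the median was -0.0606, so a fall was the more frequent sign. The 56 shared calls numbered 97 without KO replicate 3 and 35 without KO replicate 2. They numbered 36 without Cre control replicate 4 and 29, 22 and 26 without WT replicate 1, 2 and 3. In all 3 comparisons 25 genes were called higher and 11 lower. The 25 include S1pr1, Zeb2, Gpr183, Ptpn22, Bcl2, Gimap3, Abcg1 and Cd36, and the 11 include Pde2a, Palm, Gcet2 and Anxa2. Side by side, Zeb2 had log2 fold changes of 0.99 ± 0.10 SE here, 1.18 ± 0.16 with ImuBcl6 and 1.14 ± 0.12 in the pair labelled KO. S1pr1 had 0.87 ± 0.08, 0.68 ± 0.10 and 0.65 ± 0.11, and Pde2a -0.86 ± 0.10, -0.70 ± 0.12 and -1.12 ± 0.15. Plac8 had 1.40 ± 0.11 and 1.25 ± 0.23 in the pairs with D370Y and 0.06 ± 0.14 in the pair labelled KO, where it did not pass the test (adjusted p = 0.93). S100a10 (1.18 ± 0.10, 0.93 ± 0.18 and 0.22 ± 0.14) and Fcrl5 (1.15 ± 0.11, 0.87 ± 0.16 and 0.23 ± 0.15) were placed likewise. Whether the KO effect differs from the D370Y effect was not tested.

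Whether D370Y acted differently without and with ImuBcl6 was tested as a difference of the 2 effects in 1 fit of 18 libraries. Of 10689 genes 36 (0.337%) were called, 34 with the higher value without ImuBcl6 and 2 with the lower. The count ran from 11 without WT replicate 3 to 70 without ImuBcl6 replicate 1. It was 20, 20 and 23 without D370Y replicate 1, 2 and 4, 16 without WT replicate 1, and 21 and 18 without ImuBcl6 replicate 2 and 4. The contrast also carries the reversed sex arrangement, so that background and sex cannot be told apart in it. Of the called rises against WT 7 were among the 36 (Capn11, Efcab7, 1700048O20Rik, Zfp365, Rgs3, Nfic and Ccdc21), and of the called falls 1 (Eps8l1). All of these but Rgs3 were called in the opposite direction with ImuBcl6. Eps8l1 fell by 0.96 here and had 0.83 ± 0.22 with ImuBcl6. Without and with ImuBcl6, Efcab7 had 0.72 ± 0.11 and -0.59 ± 0.10 and the transcription factor gene Nfic 0.50 ± 0.11 and -0.32 ± 0.08.

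**Figure D5:**
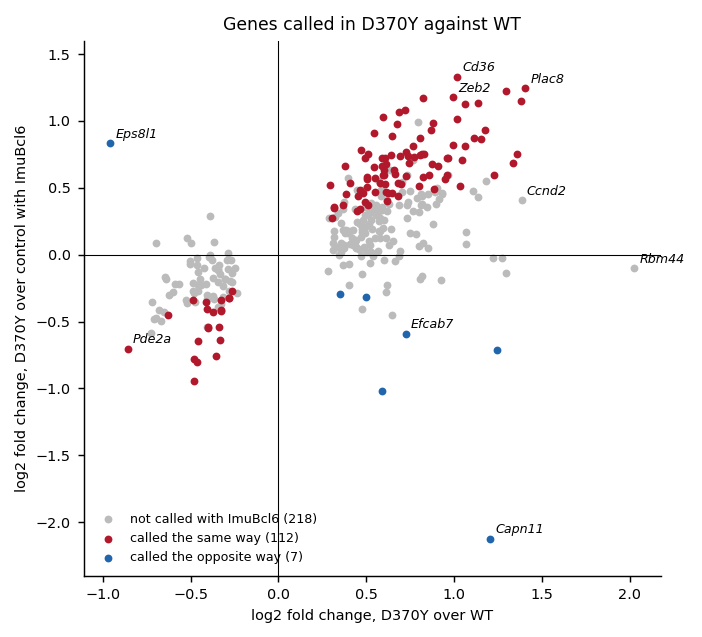
Log2 fold change of D370Y over its control without ImuBcl6 (horizontal) and with ImuBcl6 (vertical), for genes called in D370Y against WT and tested in both. Red points (112) were called the same way, blue points (7) the opposite way, and Capn11 and Eps8l1 are farthest from the rest.

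Genes near the edited locus were looked at on their own, since sequence flanking a modified allele can differ between the groups. Of 73 tested genes within 20 Mb of Tbl1xr1 on chromosome 3, 3 were called. With 3.43% of all tested genes called, this count is near the background. Zmat3, a p53 target that binds RNA, was at 18.97, 19.1, 19.8, 22.9 and 15.2 CPM in D370Y and 13.6, 13.5 and 11.9 CPM in WT (log2 fold change 0.52 ± 0.11 SE, adjusted p = 0.0227). Fndc3b was at 2.62, 3.69, 2.11, 2.02 and 2.28 CPM in D370Y and 0.99, 1.42 and 1.11 CPM in WT (log2 fold change 0.69 ± 0.15 SE, adjusted p = 0.0282), and the chaperone gene Hspa4l was lower at 16.1, 15.1, 15.6, 15.9 and 14.5 CPM in D370Y and 17.7, 20.1 and 20.7 CPM in WT (log2 fold change -0.32 ± 0.08 SE, adjusted p = 0.0486). Fndc3b reached 1 CPM in 3 libraries only with D370Y libraries counted, so a rise was favoured in advance. Each of the 3 calls was lost without any 1 WT library. With ImuBcl6 the changes of Zmat3 (-0.06 ± 0.13) and Hspa4l (-0.32 ± 0.11) did not pass the test. By chromosome the called share ran from 1.95% on chromosome 2 to 6.13% on chromosome 10, and it was 3.72% on chromosome 3.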

How the data were processed

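RNA-seq was deposited as 1 table per library. The CPM values were made by the authors, per the file headers, and the submitters' processing notes name STAR and mm10 without versions. How reads were counted (tool, strand setting, gene annotation) is not stated in the labels. Listed genes held 78.7% to 84.3% of the CPM denominator in the 8 libraries, and the rest was not analysed here. All values were whole multiples of 1 read, so reads could be recovered for edgeR (4.0.16) and DESeq2 (1.42.0), which were run as alternatives.

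Symbols were placed on GENCODE M21 by symbol (21127) or older symbol (1762), and 493 were not placed. log2(CPM + 1) was fitted with limma 3.58.1 (R 4.3.3), with a mean-variance trend and robust moderation, two-sided. Genes needed a CPM of at least 1 in 3 libraries (5 for the pairs of 5), and p-values were adjusted by Benjamini-Hochberg over all autosomal genes tested. The scripts were tested on simulated data. The members and gene lists were chosen with earlier results of these data known. A list is described by its counts and median, with no test of the list. A member that passed the filter only through the group where it is high had to differ, so a list's count and median cover its tested members only.

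Named genes were Tbl1xr1 and Bcl6, the 12 largest called rises and 12 largest called falls among genes with a mean CPM over the 8 libraries of 5 or more, and the 6 called genes with the highest mean in each direction. Further named genes were up to 4 called members of each list by p-value (or the 2 with the highest mean), called genes within 20 Mb of Tbl1xr1, up to 8 genes whose effect differed between backgrounds, and genes behind counts of 5 or fewer. Among the largest changes, predicted gene models were passed over. S1pr2, Mybl1, Fas and list members given only with a fold change fall outside this rule and were chosen after their values were seen. The labels do not say whether replicate numbers pair the samples, and the main fit had no block. Deviations of same-numbered libraries from their group means correlated at -0.03, 0.17 and 0.03 between D370Y and WT. In the ImuBcl6 pair they correlated at 0.51, 0.05, -0.27, 0.29 and -0.04. Deviations centred on so few libraries cannot decide whether the numbers pair them. Alternatives were other pseudocounts, filters, scalings, models and fits, and leaving out each library. Some members counted in the lists are not reported here by name.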

Additional observations from a re-analysis of the deposited data

Results flagged for a closer look

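Among 117 groups of D370Y values and library measures checked for a lone library, 11 were flagged, where chance flags about 1 in 20. D370Y replicate 4 was far above the other 4 mutant libraries for Gpr183 (37.1 CPM), Bcl2 (22.7 CPM), Klf3 (10.8 CPM), Mki67 (2006 CPM) and 1700048O20Rik (11.02 CPM). The same library was far below them for Ly6a (175 CPM) and for the share of the read total on listed genes (78.7%). Replicate 5 stood high for Gimap4 (329.7 CPM) and Cd36 (189 CPM) and low for Hspa2 (41.2 CPM), and replicate 3 stood low for Srebf2 (409.7 CPM).

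For 36 genes the effect of D370Y without ImuBcl6 differed from that with ImuBcl6 by limma's test of the difference. The 8 taken by the rule for named genes are given here as the first minus the second on the log2 scale. The difference was -1.79 for Eps8l1, 2.18 for Emp2, 1.96 for 1700048O20Rik, 1.74 for Eepd1, 1.36 for Vopp1, 1.31 for Reln, 1.25 for Tox and 1.23 for Celsr1. Emp2, a tetraspan membrane protein, had -0.13 ± 0.22 (SE) without and -2.31 ± 0.20 with ImuBcl6, and Tox, an HMG-box factor, 0.37 ± 0.12 and -0.88 ± 0.09. Sex runs in opposite directions in the 2 pairs and cannot be told apart from the background in these differences.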

How the results depend on the processing

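The number of genes called in D370Y against WT (349; 259 higher, 90 lower) was 202 (166 and 36) with no filter on low values, 920 (576 and 344) with library weights and 622 (435 and 187) with DESeq2. With the replicate number as a block (replicate block) it was 746 (527 and 219). WT has no replicate 4 or 5, so this fit takes the difference from replicates 1 to 3 of each group. Whether the numbers pair the libraries is not known, and not every library correlated best with its own number. Falls numbered 59 with CPM over listed genes and 37 in 1 fit of all 28 libraries. Leaving out 1 library gave 101 to 436 calls, 85 to 292 higher and 16 to 144 lower. The ImuBcl6 pair (829) had 1335 calls with DESeq2 and 380 to 946 with 1 library left out. Genes called the same way in both D370Y comparisons (112) numbered 56 with no filter, 224 with DESeq2, 204 with the replicate block and 50 to 132 with 1 library left out. Calls for the difference between backgrounds (36) numbered 55 at a pseudocount of 0.25, 159 with DESeq2 and 11 to 70 with 1 library left out. Alternatives for the pair labelled KO were chosen after seeing the data. Its calls (152) numbered 451 with DESeq2 and 92 to 451 with 1 library left out, and those it shared with D370Y against WT (56) numbered 137 with DESeq2 and 22 to 97 with 1 library left out. Over all 21 alternatives the list counts for D370Y against WT ran from 9 to 12 for memory B cell rises (11), 5 to 9 for BCL6 target rises (9), 1 to 14 for plasma cell rises (4), 1 to 9 for interferon response rises (5), 1 to 8 for adhesion rises (3), 4 to 10 for atypical memory rises (8), 1 to 10 for myeloid marker rises (6), 1 to 9 for germinal center falls (6) and 0 to 6 for mutation and repair falls (2). Cr2, not called in the main comparison, had -0.39 with the replicate block (adjusted p = 0.00821). D370Y replicates 4 and 5, the libraries with the highest Cr2 (387 and 602 CPM), do not enter that difference. The causes of the shifts in the counts were not tested, and each omission also left fewer samples. Of the 80 called genes followed one by one, 80 kept their call with DESeq2, 76 with edgeR, 76 with TMM scaling, 78 with the replicate block and 51 in 1 fit of all 28 libraries, and 0 reversed. No scaling moved the median of all genes by over 0.1 or the share of rises by over 10 points. At the depth of these libraries 3 reads equal 0.111 to 0.133 CPM, so changes of genes near that level were not detectable.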
